A study of Mus musculus with 12 samples.

Results

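Complement and coagulation genes of the liver were followed in Tom+ and Tom- hepatocytes from mice given corn oil or CCl4. The set was a named list of 39 genes, 19 of the complement system and 20 of coagulation and fibrinolysis listed by function. All 39 were found among the 54839 features counted, and all 39 passed the filter on low counts that left 17121 features for the tests.

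The libraries were bulk RNA-seq of polyA RNA from sorted liver cells of male heterozygous p16-Tom mice, in 4 groups of 3. A p16-Tom mouse carries a tamoxifen-dependent Cre recombinase, CreERT2, under the control of p16, and a tdTomato reporter at the R26 locus that Cre switches on, so that Tom+ cells had active p16 when tamoxifen was given. CCl4, a toxin that hepatocytes turn into a reactive form and that leads to liver fibrosis, was injected into the peritoneum every 3 days at 1 mL/kg in corn oil, on the 4-week schedule of the study, and the controls received corn oil alone. All 4 groups carried the transgenes and were given tamoxifen (80 mg/kg), so the groups were Tom- oil, Tom+ oil, Tom- CCl4 and Tom+ CCl4 hepatocytes. Nothing in the labels says that the 3 libraries of a group came from separate mice, so that p-values measure only the spread between these libraries. The ages of the mice are not given in the sources used here.

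Library totals were between 37568584 and 75331424 counts. The tdTomato reporter went against the label in 2 oil libraries: it stood at 1794 CPM (counts scaled to the library's effective size) in the library labelled Tom- oil replicate 1, against 157 and 143 CPM in the other Tom- oil libraries, and at 135 CPM in the library labelled Tom+ oil replicate 2, against 1546 and 1225 CPM in the other Tom+ oil libraries. In CCl4 the reporter followed the labels, with 120 to 263 CPM in Tom- and 1316 to 1369 CPM in Tom+. The labels were kept, and counts of members in comparisons with oil libraries are also given without those 2. Values of members, of other pathway genes and of markers are from all 12 libraries unless said otherwise. Hepatocyte markers such as Alb were high in every library, whereas the markers of macrophages, endothelial cells and stellate cells summed to between 6.90 and 312 CPM for each list. The 5 bile duct markers summed to between 5.25 and 7.38 CPM in the oil groups, although Krt19 and Krt7 were at 0 there. In the CCl4 groups they summed to between 8.47 and 17.95 CPM, and none was at 0 in every library of a group.

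Complement is a cascade of plasma proteases and binding proteins that marks surfaces through C3 and ends in a membrane pore, and coagulation is a cascade of plasma proteases that ends in the cutting of fibrinogen to fibrin. Hepatocytes make most of the plasma proteins of both cascades and secrete them, together with the inhibitors that keep them in check. HNF4 and C/EBP factors are known to drive such genes in hepatocytes, and STAT3, downstream of IL-6, raises part of them in the acute phase response.

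The members moved together in some comparisons, so their promoters were set side by side. RefSeq promoters of GRCm38.p6, from 250 bases before to 50 bases after a start, were present for 30 of the 39 members, in 32 entries. Serping1, Masp1, Cfb, Cfi, Proc, C4b, C2, Kng1 and Plg had no entry. Each promoter was searched on both strands for AAAGTCC (an HNF4 motif), TTGCNNAA (C/EBP), TTCNNNGAA (STAT) and CTGGGAA (type 2 IL-6 response element), where matches of different motifs may overlap. TTGCNNAA was in 34.4% of the member entries and in 10.8% of all 32851 promoters of the table, TTCNNNGAA in 25.0% and 8.30%, CTGGGAA in 21.9% and 11.1%, and AAAGTCC in 6.25% and 4.21%. A match is a description of the letters and not a binding site.

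The promoters of the fibrinogen chains are shown because the 3 chains form 1 protein and their genes lie in a row, those of C8a and C8b because these neighbours were the terminal pathway genes that fell with CCl4 in Tom+ cells, and those of F7 and Vtn because F7 had the largest and Vtn the next largest difference between fractions in CCl4. Each is written 5′ to 3′ on the strand of its gene, and capitals mark the matches to the motifs.
Fga, GRCm38.p6, chr3:83025903-83026202, plus strand: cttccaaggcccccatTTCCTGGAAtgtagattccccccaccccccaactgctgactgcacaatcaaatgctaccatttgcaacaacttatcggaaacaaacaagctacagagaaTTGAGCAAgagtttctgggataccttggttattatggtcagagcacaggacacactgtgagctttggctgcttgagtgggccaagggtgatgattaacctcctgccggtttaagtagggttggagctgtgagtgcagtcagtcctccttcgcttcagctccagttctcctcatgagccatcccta
Fgb, GRCm38.p6, chr3:83049814-83050113, minus strand: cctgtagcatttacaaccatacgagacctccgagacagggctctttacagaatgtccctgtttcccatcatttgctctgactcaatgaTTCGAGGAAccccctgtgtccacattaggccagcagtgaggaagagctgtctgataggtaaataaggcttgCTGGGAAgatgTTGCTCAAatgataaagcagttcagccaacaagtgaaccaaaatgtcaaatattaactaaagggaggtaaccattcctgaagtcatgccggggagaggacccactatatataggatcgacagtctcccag
Fgg, GRCm38.p6, chr3:83007474-83007773, plus strand: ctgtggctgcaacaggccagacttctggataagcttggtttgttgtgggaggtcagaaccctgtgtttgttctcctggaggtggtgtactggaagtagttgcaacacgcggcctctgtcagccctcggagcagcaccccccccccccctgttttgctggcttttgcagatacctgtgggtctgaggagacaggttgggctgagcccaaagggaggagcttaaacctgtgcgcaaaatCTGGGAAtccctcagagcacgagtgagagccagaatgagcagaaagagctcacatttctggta
C8a, GRCm38.p6, chr4:104876349-104876648, minus strand: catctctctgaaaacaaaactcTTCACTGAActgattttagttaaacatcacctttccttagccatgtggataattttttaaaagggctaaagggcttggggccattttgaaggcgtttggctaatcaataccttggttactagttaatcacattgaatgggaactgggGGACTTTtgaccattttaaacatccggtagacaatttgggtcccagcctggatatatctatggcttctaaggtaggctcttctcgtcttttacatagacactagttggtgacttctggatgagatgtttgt
C8b, GRCm38.p6, chr4:104766067-104766366, plus strand: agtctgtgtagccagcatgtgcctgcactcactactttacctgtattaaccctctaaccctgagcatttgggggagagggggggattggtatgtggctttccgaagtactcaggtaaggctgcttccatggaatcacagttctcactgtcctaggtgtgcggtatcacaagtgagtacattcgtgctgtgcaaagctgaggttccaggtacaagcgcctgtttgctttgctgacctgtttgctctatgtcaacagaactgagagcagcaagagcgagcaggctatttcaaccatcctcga
F7, GRCm38.p6, chr8:13025784-13026083, plus strand: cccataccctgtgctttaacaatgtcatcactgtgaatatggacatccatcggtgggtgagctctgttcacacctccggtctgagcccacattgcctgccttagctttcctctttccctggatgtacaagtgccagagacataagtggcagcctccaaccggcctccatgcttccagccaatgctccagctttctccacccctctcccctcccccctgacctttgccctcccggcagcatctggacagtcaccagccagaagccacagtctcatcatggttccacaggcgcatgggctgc
Vtn, GRCm38.p6, chr11:78498870-78499169, plus strand: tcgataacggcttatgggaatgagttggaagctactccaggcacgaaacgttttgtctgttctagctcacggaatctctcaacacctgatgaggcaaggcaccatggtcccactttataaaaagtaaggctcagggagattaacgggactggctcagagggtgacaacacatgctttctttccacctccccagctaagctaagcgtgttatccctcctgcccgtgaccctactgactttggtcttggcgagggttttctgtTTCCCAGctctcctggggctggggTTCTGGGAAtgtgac
Fga and Fgb shared the C/EBP motif and the STAT motif in these windows, Fgb also held the type 2 IL-6 response element, and Fgg held that element alone. C8a held AAAGTCC and TTCNNNGAA. In Vtn the match to TTCNNNGAA overlapped a CTGGGAA. None of the 4 letter patterns was in the windows of F7 and C8b, nor in those of F10 and F12. The same held for Mbl1, Mbl2, Hc, C8g, F2, F5, F13b, Serpind1 and Serpinf2. Members without a match thus included some that fell in a comparison and some that did not.

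The members were among the most abundant transcripts of these cells. Together they took between 5.60% and 7.52% of all counts of a library. On a scale that corrects for length (TPM, a share of all transcripts), C3, the central complement protein, averaged 10139 TPM over the 12 libraries and was the 7th most abundant of all features, with a range of 8303 to 12883 TPM. It was followed by Fgg at 3514 TPM, Vtn at 3505 TPM, Fga at 3430 TPM and Fgb at 2398 TPM. The order of Fgg, Vtn and Fga was not fixed: Fgg exceeded Vtn in 4 of 12 libraries, and Vtn exceeded Fga in 7. By contrast, C3 was above Fgg and Fga above Fgb in 12 of 12 libraries. Of the 39 members, 29 ranked within the 500 most abundant features, and 34 averaged over 100 TPM.

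**Figure D1:**
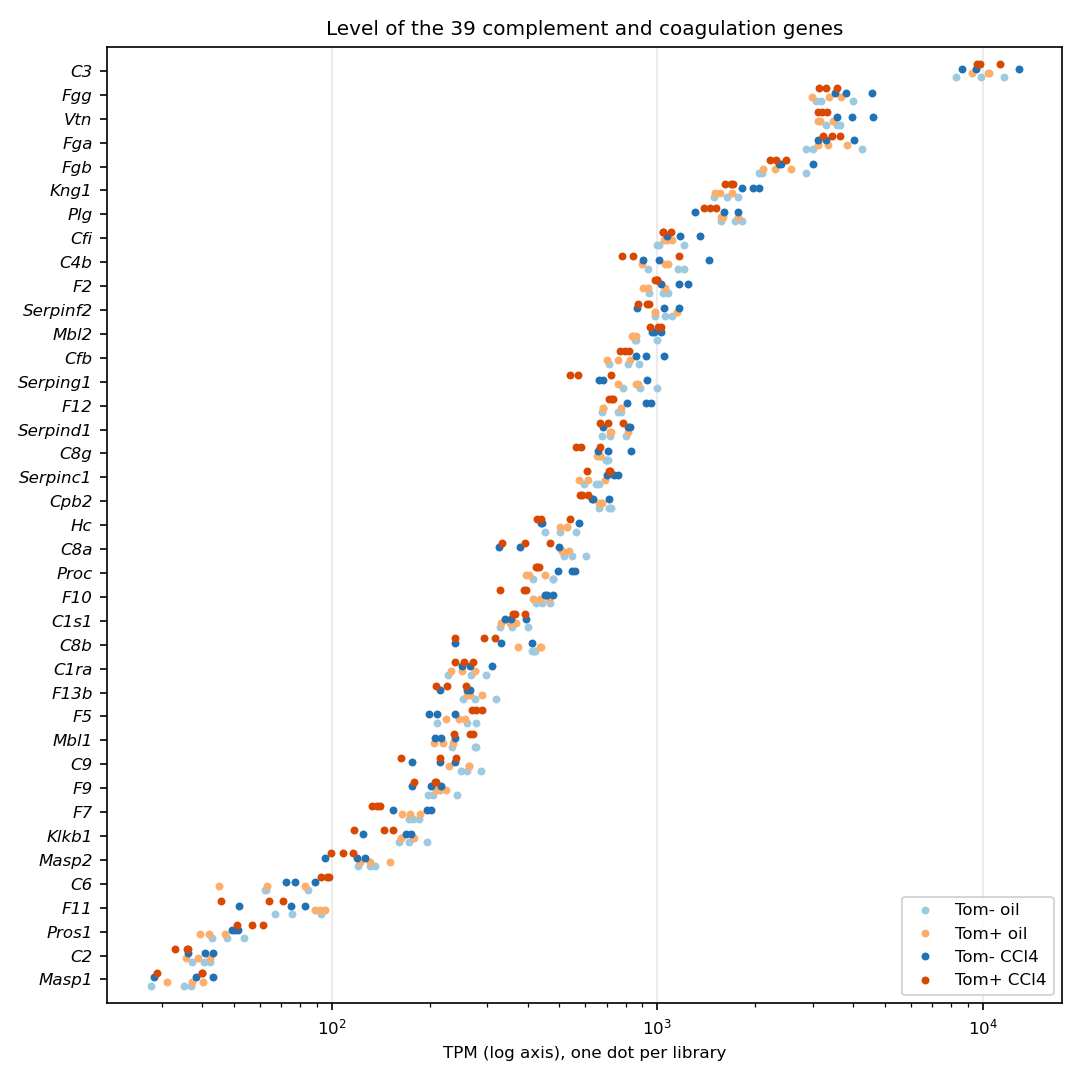
Level of each member in TPM (log axis), with 1 dot per library coloured by group and members ordered by their mean over 12 libraries. C3 stands alone near 10139 TPM, the fibrinogen chains and Vtn follow, and Masp1 (35.6 TPM) and C2 (38.5 TPM) are lowest.

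By the mean over the 12 libraries, the most abundant member of each role was C4b (1040 TPM), the fourth component split by C1s, among the initiators, C3 in the central step, C8g (674 TPM), the small chain of C8, in the terminal pathway, and Vtn, which blocks the forming pore, among complement inhibitors. In coagulation these were F2, prothrombin (1031 TPM), among the vitamin K dependent factors, F13b (258 TPM), the carrier chain of factor XIII, beside the cofactor F5 (247 TPM), Kng1, kininogen (1710 TPM), in the contact system, Fgg in fibrinogen, Serpind1, heparin cofactor II (743 TPM), close to antithrombin Serpinc1 (668 TPM), and Plg, plasminogen (1590 TPM), in fibrinolysis. In 4 roles another member led in some libraries: Fga in 6 of 12, Mbl2 in 3, Serpinc1 in 2, and F5 in 3, which were the Tom+ CCl4 libraries (277, 290 and 270 TPM for F5 against 226, 259 and 208 TPM for F13b). The least abundant members were the proteases Masp1 and C2, the protein C cofactor Pros1 (49.4 TPM) and F11 (75.1 TPM), all well below C3 and fibrinogen. C4b, C1ra, C1s1 and Kng1 have close copies in the mouse genome (C4a, C1rb, C1s2, Kng2), and the counting could split reads between copies, so that their own levels are uncertain.

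Several members are neighbours in the genome (mm10). F7 (chr8:13026034-13035809, plus strand) ends 1498 bases before F10 (chr8:13037308-13056676, plus strand), Cfb ends 85 bases before C2 on chromosome 17, F11 and Klkb1 are 4657 bases apart on chromosome 8, C8b and C8a 11130 bases apart on chromosome 4, and Fgg, Fga and Fgb lie in a row on chromosome 3. The counting program is not given in the sources used here, so reads of genes that lie this close may have been assigned to a neighbour. The strand setting is not given either. It would not separate Cfb from C2, F7 from F10, F11 from Klkb1 or Fgg from Fga, which share a strand. Over 12 libraries, the member most like Fgb in log2 CPM was Fgg (Pearson r = 0.972), the member most like C8a was C8b (r = 0.922), that most like F11 was Klkb1 (r = 0.914), and that most like C1ra was C1s1 (r = 0.976). Proc, on another chromosome than either, was the member most like F12 and F2 (r = 0.982 each), and F7 was most like Serpinf2 (r = 0.942). These values describe libraries that share group and scaling, and carry no test. Mbl1 and F5 had no close partner (r = 0.464 with each other).

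**Figure D2:**
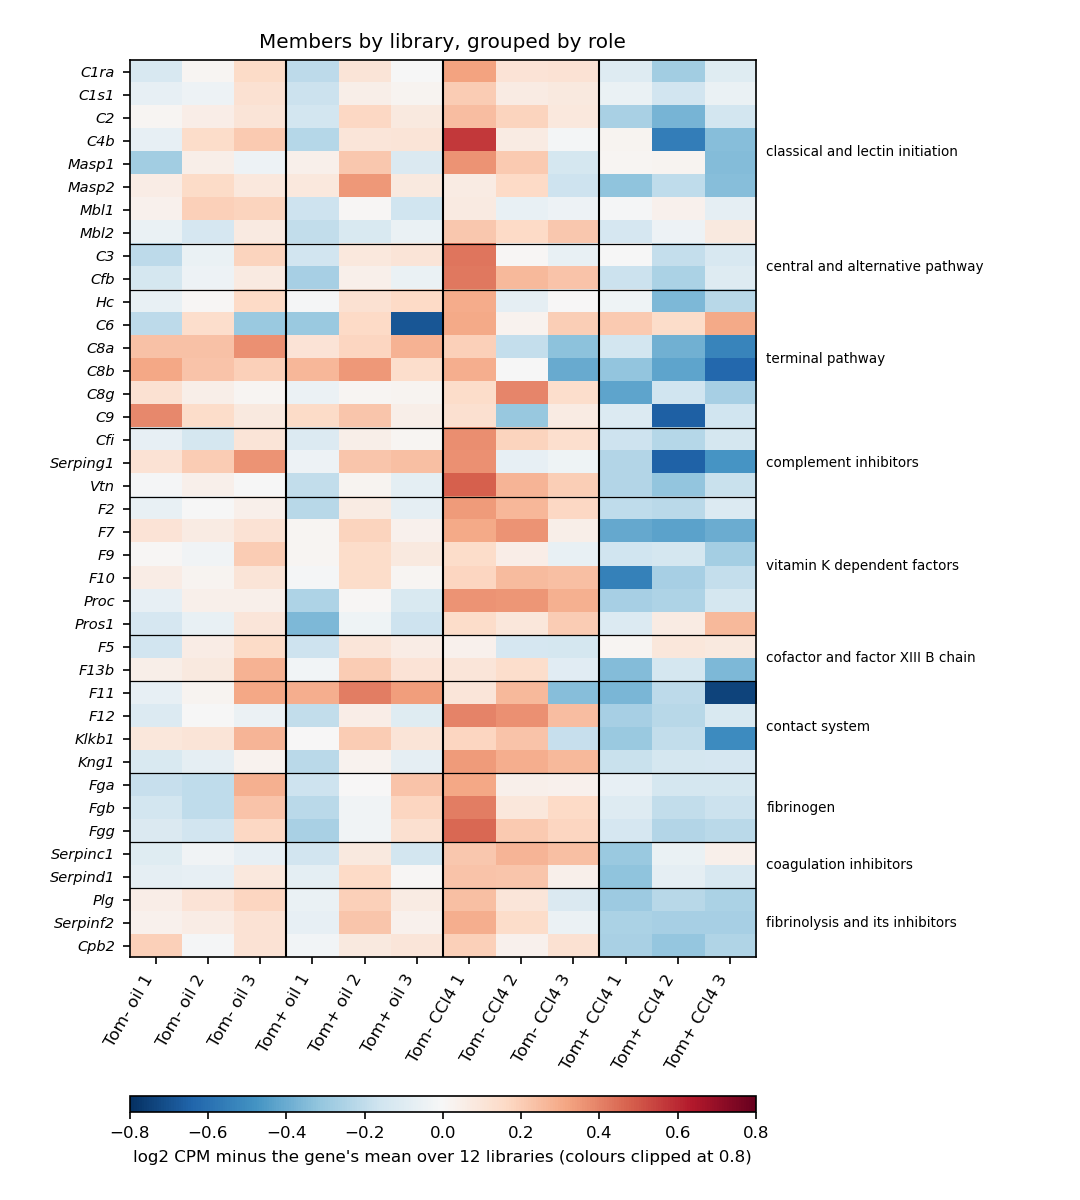
Each member's log2 CPM minus its own mean over the 12 libraries, with members in rows by role and libraries in columns by group and replicate number. The Tom- CCl4 columns are mostly above and the Tom+ CCl4 columns mostly below a member's mean, with C6, F5, Pros1, Mbl1 and C8a among the rows that do not follow, and Tom- CCl4 replicate 1 is highest for many members.

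The difference between Tom+ and Tom- hepatocytes of CCl4-treated mice was the main pattern of these genes. In Tom+ cells 15 of 39 members fell and none rose (edgeR quasi-likelihood test, Benjamini-Hochberg adjusted p under 0.05), where 3.83% of all genes tested fell and 1.96% rose. The median log2 fold change of the members was -0.38, against 0.004 over all genes tested, and 37 of 39 members had a negative value. In 27 of 39 members the 3 Tom+ libraries all lay below the 3 Tom- libraries, which 14.6% of all genes did, and in none did they all lie above, as in 14.1% of all genes. None of the 39 passed the further limit of 0.75 on the log2 fold change, which 1.74% of all genes passed downward and 0.222% upward, and the 15 lay between 0.635-fold and 0.765-fold. No member rose at an unadjusted p under 0.05 or by DESeq2 either. Since most members are abundant, the 471 features other than members within the 500 most abundant were set beside them: 14.6% of those fell, and their median was -0.09. Same-numbered Tom+ and Tom- libraries of one treatment deviated together. A fit blocked on that number called 33 of 39 members lower (9.72% of all genes tested and 34.2% of the 471 abundant features), all 15 among them, the exceptions being C1s1, Mbl1, C3, C6, Pros1 and F5. The count of 15 was 20 without Tom- CCl4 replicate 3, but 7 without Tom- CCl4 replicate 1, 4 without Tom- CCl4 replicate 2, 7 without Tom+ CCl4 replicate 1 and 5 without Tom+ CCl4 replicate 2. Without the 2 oil libraries whose reporter went against their label 13 members fell (675 of 17525 genes tested), and Serping1 and Fgg did not pass. Scaling by total counts in place of TMM moved the median of all genes by 0.151. With that scaling the median of the members was -0.23, 35 of 39 values were negative with Mbl1 and Pros1 changing sign, and 10 of the 15 members still fell. Cfi, Serping1, Fgg, Serpinf2 and Cpb2 did not pass with it. On the TPM scale, which was not tested, F7 averaged 137 TPM in Tom+ CCl4 and 184 TPM in Tom- CCl4, and C3 10239 and 10347 TPM. The mean in TPM was higher in Tom+ CCl4 for C1s1, Mbl1, Mbl2, C6, Pros1 and F5 and lower for the other members. For some of the latter the means in Tom+ CCl4 and Tom- CCl4 were close, such as Fga (3440 and 3478 TPM), C8a (397 and 402 TPM) and C9 (206 and 210 TPM).

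Among the vitamin K dependent factors, which need a carboxylated domain to bind membranes, 4 of 6 fell. F7, factor VII, which starts coagulation with tissue factor, was at 98.9, 97.6 and 99.9 CPM in the Tom+ CCl4 libraries and at 162, 169 and 136 CPM in the Tom- CCl4 libraries. All 3 Tom+ libraries were below every other library of the study, and they differed from each other by little. Its log2 fold change was -0.66 ± 0.089 (SE), or 0.635-fold, with an adjusted p of 0.00373 in edgeR and of 1.4e-04 with the block. Proc, protein C, the protease that inactivates the cofactors V and VIII, was at 397, 403 and 434 CPM in Tom+ CCl4 and at 614, 610 and 582 CPM in Tom- CCl4. Its log2 fold change was -0.55 ± 0.089 (SE; edgeR adjusted p = 0.00671), and so both a procoagulant and an anticoagulant protease fell. F10, factor X, which makes thrombin from prothrombin, was at 339, 410 and 432 CPM against 555, 586 and 584 CPM (log2 fold change -0.55 ± 0.098 SE, edgeR adjusted p = 0.00936). F2 fell to 0.74-fold. F9 (log2 fold change -0.24) and Pros1 (-0.07) did not pass the test, and Pros1 overlapped between the groups.

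In the contact system, the surface-triggered start of clotting and of kinin release, 2 of 4 members fell. F12, factor XII, was at 525, 542 and 580 CPM in Tom+ CCl4 and at 832, 812 and 748 CPM in Tom- CCl4, with no overlap. Its log2 fold change was -0.54 ± 0.092 (SE; edgeR adjusted p = 0.00763). Kng1 fell to 0.732-fold. Klkb1, prekallikrein (-0.41), and F11, factor XI (-0.45), had similar values with wider spread and did not pass the test (edgeR adjusted p = 0.0592 and 0.113), although both fell with the block.

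The fibrinogen chains were lower by graded amounts. Fgg was at 2815, 2631 and 2662 CPM in Tom+ CCl4 and at 4254, 3567 and 3480 CPM in Tom- CCl4, and fell (log2 fold change -0.48 ± 0.126 SE, edgeR adjusted p = 0.0419). Without the 2 oil libraries whose reporter went against their label its edgeR adjusted p was 0.0578, and it did not pass with total-count scaling either. Fgb (-0.38) and Fga (-0.25) did not overlap between the groups and did not pass the test. The ratio of Fgg to Fga in TPM, which no scaling of libraries can change, was 1.13 to 1.15 in Tom- CCl4, 0.96 to 0.977 in Tom+ CCl4, 0.954 to 1 in Tom+ oil and 0.943 to 1.07 in Tom- oil. The Tom- CCl4 libraries were thus above all others, an exact permutation test between the CCl4 fractions being unable to go below 0.10 with 3 libraries a group.

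The inhibitors of complement all fell, 3 of 3. Vtn, vitronectin, was at 2543, 2400 and 2641 CPM in Tom+ CCl4 and at 4162, 3617 and 3423 CPM in Tom- CCl4 (log2 fold change -0.56 ± 0.102 SE, edgeR adjusted p = 0.00936). Serping1, the C1 inhibitor, which also blocks factor XII and kallikrein, fell to 0.686-fold, and Cfi, factor I, which cuts C3b and C4b, to 0.754-fold. Serping1 had an edgeR adjusted p of 0.0386, and of 0.0517 without the 2 oil libraries whose reporter went against their label. With total-count scaling Vtn still fell, whereas Serping1 and Cfi did not pass. Fibrinolysis showed 2 of 3, Serpinf2, the plasmin inhibitor (0.759-fold), and Cpb2, a carboxypeptidase that protects fibrin (0.765-fold), while Plg had a value of -0.33 with no overlap and did not pass. Neither Serpinf2 nor Cpb2 passed with total-count scaling. Both coagulation inhibitors, Serpinc1 (-0.34) and Serpind1 (-0.34), lay apart without passing.

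In the complement cascade itself fewer members passed. Of the 8 initiators only C2, the protease subunit of the C3 convertase, fell (0.744-fold), while C4b had a value of -0.50 with overlapping groups (edgeR adjusted p = 0.106). The other 6 initiators, C1ra, C1s1 and the lectin pathway's Masp1, Masp2, Mbl1 and Mbl2, had values of -0.01 to -0.34 that did not pass. Cfb, the counterpart of C2 in the alternative pathway, was at 870, 822 and 911 CPM in Tom+ CCl4 and at 1314, 1171 and 1148 CPM in Tom- CCl4, and fell to 0.717-fold. C3 did not pass the test: it was at 21889, 19192 and 20028 CPM in Tom+ CCl4 and at 29465, 22042 and 20992 CPM in Tom- CCl4, where a single library was high and the groups overlapped. In the terminal pathway, the pore-forming proteins, C8g alone fell (0.704-fold), with C8b at -0.44, C8a at -0.25, C9 at -0.26, Hc at -0.28 and C6 at 0.04. C6, F5 (0.14) and Mbl1 (-0.01) were the members nearest to or above 0. Across the complement members 6 of 19 fell and across the coagulation members 9 of 20, which was not tested as a difference.

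**Figure D3:**
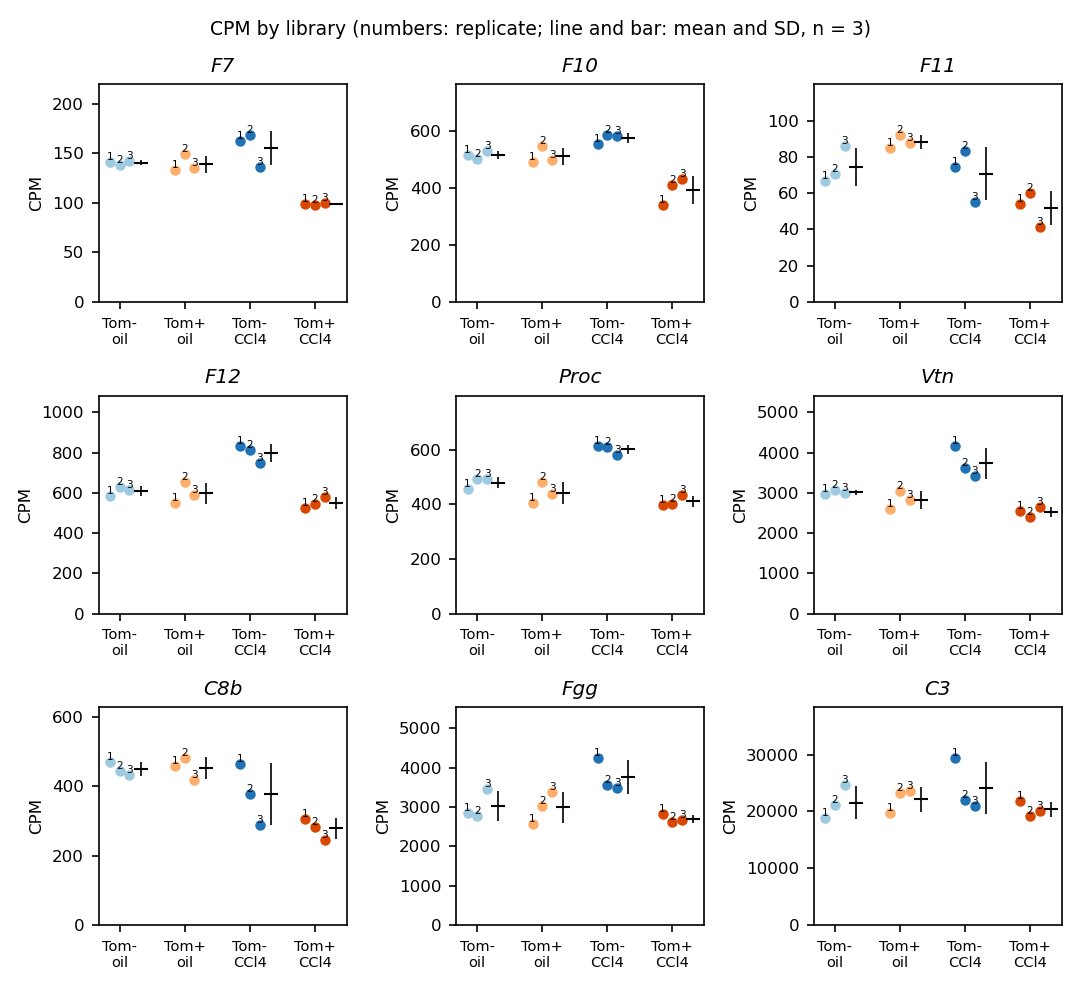
CPM by library for 9 members, with replicate numbers over the dots and the mean and SD (n = 3) beside each group, all axes starting at 0. For F7, F10, F12, Proc, Vtn and Fgg the Tom+ CCl4 dots are all below the Tom- CCl4 dots, while C3, C8b and F11 overlap.

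In oil no member passed the test between fractions. None of the 39 members passed in either direction (edgeR adjusted p under 0.05; 0% of all genes tested did), with 1 member lower at an unadjusted p under 0.05 and none by DESeq2, by which 23 genes of all rose and 25 fell. The median log2 fold change of the members was -0.03, with 28 negative and 11 positive. The member with the smallest p was Mbl1, mannose-binding lectin A, at 142, 159 and 142 CPM in Tom+ oil and at 162, 181 and 179 CPM in Tom- oil, the only member whose groups did not overlap, which 5.57% of all genes did downward and 6.11% upward (log2 fold change -0.24 ± 0.083 SE, edgeR adjusted p = 0.591). F11 was at 85.0, 92.2 and 87.5 CPM in Tom+ oil and at 66.5, 70.4 and 86.0 CPM in Tom- oil (0.25 ± 0.158 SE, edgeR adjusted p = 0.803), and Pros1 had a value of -0.15 ± 0.108 (SE, edgeR adjusted p = 0.82). The 2 oil libraries that went against their label sit on both sides of this comparison. Without them the median was -0.12, 38 of 39 values were negative and 1 positive, and again no member passed.

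**Figure D4:**
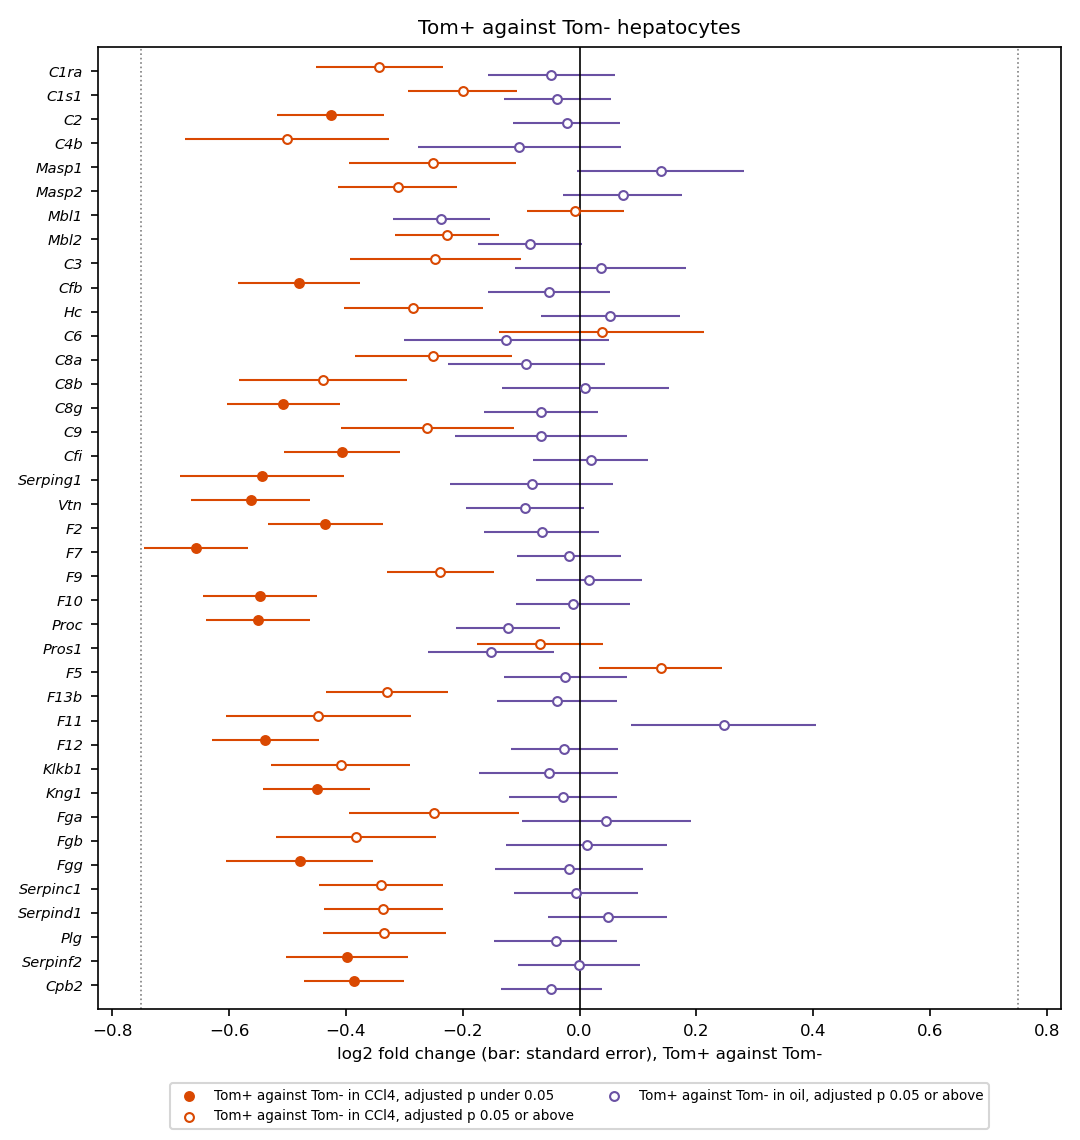
Log2 fold change of Tom+ against Tom- for each member in CCl4 (orange) and in oil (purple), with standard errors, filled dots for an adjusted p under 0.05 and dotted lines at 0.75 in both directions. In CCl4 37 of 39 values are below 0 and 15 are filled, and in oil none is filled and the values lie around 0.

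Whether the fraction difference itself differed between CCl4 and oil was tested as an interaction. Only F7 passed, with a log2 value of -0.64 ± 0.126 (SE; edgeR adjusted p = 0.0311), where 1.07% of all genes tested passed downward and 0.473% upward. No member passed the further limit of 0.75, which 0.958% passed downward and 0.216% upward. The members' median was -0.38 and 35 of 39 values were negative, against a median of -0.01 over all genes, but F12 (-0.51 ± 0.130 SE, edgeR adjusted p = 0.0655) and F10 (-0.54 ± 0.139 SE, edgeR adjusted p = 0.0681) missed the threshold. With the replicate block 24 of 39 members passed, all downward (7.18% of all genes tested), F7 at an adjusted p of 0.00287 and F11 at 0.00137, and by DESeq2 11, also downward (3.84% of all genes tested passed downward and 2.31% upward by DESeq2). In the block, the reporter was alike within the oil pairs numbered 1 (1794 and 1546 CPM) and 2 (157 and 135 CPM). No blocked fit was run without the 2 oil libraries against their label. Without the 2 oil libraries whose reporter went against their label, 0 passed, and F7 had a value of -0.59 (edgeR adjusted p = 0.0859). Leaving out any single library other than Tom- oil replicate 3, Tom+ oil replicate 3 or Tom- CCl4 replicate 3 also brought F7 above the threshold, to at most 0.0982, with values of -0.58 to -0.67. No member passed upward, nor did any at an unadjusted p under 0.05 or by DESeq2.

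CCl4 against oil was followed within each fraction, to see which arm moved. In Tom- hepatocytes 4 of 39 members rose and none fell (edgeR adjusted p under 0.05), where 9.37% of all genes tested rose and 6.75% fell. The share of members was thus near that of all genes. One member was lower at an unadjusted p under 0.05, C8a, which also fell by DESeq2, where 9 rose (12% of all genes tested rose by DESeq2 and 8.64% fell). Those that rose were F12, Kng1, Proc and Cfb, each by less than the 0.75 limit, which 6.33% of all genes passed upward and 1.59% downward. F12 was at 832, 812 and 748 CPM in Tom- CCl4 and at 585, 630 and 612 CPM in Tom- oil (log2 fold change 0.39 ± 0.092 SE, edgeR adjusted p = 0.0127). Kng1, the source of bradykinin, was at 2959, 2863 and 2806 CPM against 2147, 2222 and 2382 CPM (0.35 ± 0.092 SE, edgeR adjusted p = 0.0204), and Proc at 614, 610 and 582 CPM against 457, 492 and 492 CPM (0.33 ± 0.089 SE, edgeR adjusted p = 0.0248). For these 3 the groups did not overlap. Of the 39 members 12 lay wholly higher in CCl4 and 1, C8a, wholly lower, where 19.3% and 16.8% of all genes did. The count fell to 0 without Tom- oil replicate 1, and to 1 without Tom- oil replicate 2, Tom- CCl4 replicate 1 or Tom- CCl4 replicate 2, and 2 members fell without Tom- CCl4 replicate 1. Without the 2 oil libraries that went against their label F12 alone rose (edgeR adjusted p = 0.0414).

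In Tom+ hepatocytes the balance of signs was the opposite, with 34 of 39 values negative, where 27 of 39 were positive in Tom-. There 10 of 39 members fell and none rose (edgeR adjusted p under 0.05), where 4.56% of all genes tested fell and 4.91% rose, and 18 members lay wholly below their oil libraries, which 14.6% of all genes did. Of the 471 other abundant features 17.4% fell. At an unadjusted p under 0.05 2 members were higher, C6 and Pros1, and none rose by DESeq2. F11 was the only member past both limits, which 2.34% of all genes passed downward and 2.9% upward. It was at 54.0, 60.1 and 41.6 CPM in Tom+ CCl4 and at 85.0, 92.2 and 87.5 CPM in Tom+ oil, or 0.588-fold (log2 fold change -0.77 ± 0.158 SE, edgeR adjusted p = 0.00971). C8b, the chain of C8 that binds the forming complex, was at 305, 283 and 246 CPM against 457, 482 and 418 CPM (-0.70 ± 0.144 SE, edgeR adjusted p = 0.00872), and F7 at 98.9, 97.6 and 99.9 CPM against 133, 149 and 135 CPM (-0.49 ± 0.089 SE, edgeR adjusted p = 0.00415). The groups did not overlap for any of these 3. The others were C8a, Serping1, Masp2, Klkb1, F10, F13b and Cpb2, between 0.665-fold and 0.80-fold. No member passed in both fractions. Of the 10, Masp2, C8a, C8b, Serping1, F13b, F11 and Klkb1 had negative values in Tom- cells too, where they did not pass. No chain of fibrinogen passed (log2 fold changes of -0.14 to -0.15), nor did C3 (-0.12).

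The count of 10 in Tom+ was 6 without Tom+ oil replicate 1, 3 without Tom+ oil replicate 2, 6 without Tom+ oil replicate 3, 6 without Tom+ CCl4 replicate 1, 6 without Tom+ CCl4 replicate 2 and 4 without Tom+ CCl4 replicate 3, and 1 member rose without Tom+ oil replicate 2. Without the 2 oil libraries that went against their label 1 member fell, F7 (edgeR adjusted p = 0.0305), C6 rose, and F11 (-0.73) and C8b (-0.65) had adjusted p of 0.0506 and 0.0527. The call of F11 past both limits was also lost without Tom+ oil replicate 2 or Tom+ CCl4 replicate 3. By total-count scaling 5 members fell. Averaged over both fractions, 8 members fell (10.1% of all genes tested fell and 11.9% rose): Masp2, C8a, C8b, C9, Serping1, F13b, F11 and Klkb1. Of the 471 other abundant features 24% fell in that average. Without the 2 oil libraries that went against their label 2 members fell, C8a and C8b, and C6 rose. None of the 8 passed the 0.75 limit, which 2.26% of all genes passed downward and 6.17% upward.

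**Figure D5:**
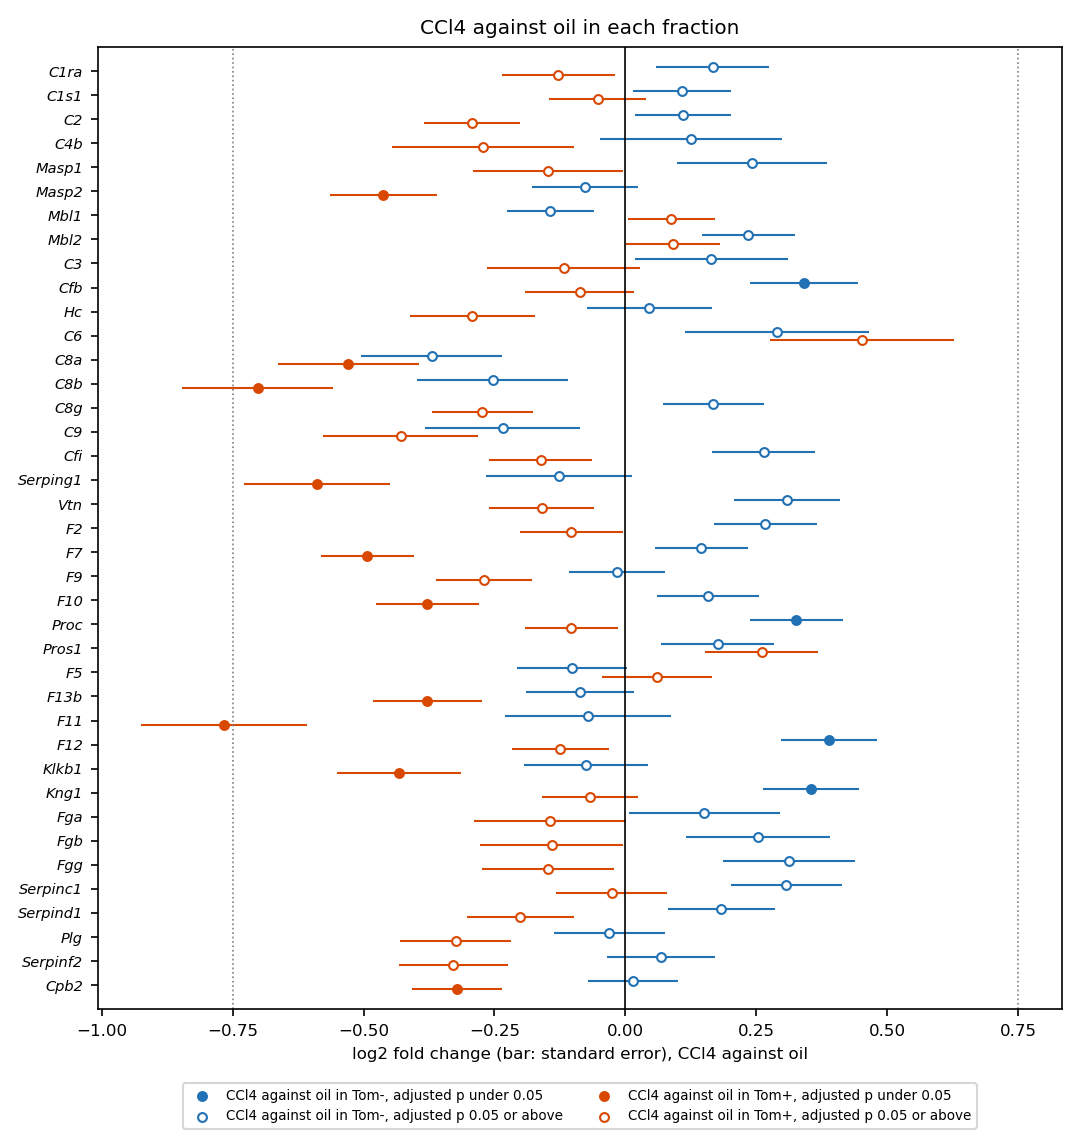
Log2 fold change of CCl4 against oil for each member in Tom- (blue) and Tom+ (orange), with standard errors, filled dots for an adjusted p under 0.05 and dotted lines at 0.75. The Tom- values are mostly above 0 (27 of 39) and the Tom+ values mostly below (34 of 39), and the contrasts do not share libraries.

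Other genes of these pathways were taken from a list set by function. Of 22 complement genes tested 1 fell in Tom+ against Tom- of CCl4-treated mice, Cfhr2, and of 21 coagulation and fibrinolysis genes 2 fell, both past the 0.75 limit, Hgfac and Tfpi. Hgfac, a liver-made protease that activates hepatocyte growth factor and resembles factor XII, was at 276, 265 and 278 CPM in Tom+ CCl4, at 505, 521 and 462 CPM in Tom- CCl4 and between 355 and 409 CPM in oil. Its log2 fold change was -0.86 ± 0.087 (SE; edgeR adjusted p = 0.0011), and it also passed the interaction (-0.89, edgeR adjusted p = 0.00738). Tfpi, the inhibitor of the factor VII and tissue factor complex, which endothelial cells make, was at 3.35, 3.21 and 4.22 CPM against 6.70, 8.68 and 5.56 CPM (-0.96 ± 0.252 SE, edgeR adjusted p = 0.042).

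In CCl4 against oil in Tom- cells 6 genes of these 2 lists rose past both limits: the collectins Colec10 (1.57) and Colec11 (2.37), the decay-accelerating Cd55 (1.20), F8 (0.80), Tfpi (1.35) and thrombomodulin Thbd (2.52), all log2 fold changes of genes at under 20 CPM. Colec10 and Colec11 are known from stellate cells, and F8, Tfpi and Thbd from endothelial cells. By the adjusted p alone Habp2 (0.43) and Hgfac (0.38) rose as well, and Cd59a (-0.40) fell. In Tom+ cells C3ar1 (2.66) and Thbd (2.28) rose and tissue factor F3 (-1.10) fell past both limits, C3ar1 at under 3 CPM in every library. By the adjusted p alone C1rl, Cfhr2, Cd59a, Proz and Hgfac fell too (-0.39 to -0.51). Without the 2 oil libraries that went against their label the 6 genes past both limits in Tom- cells still passed them, whereas C3ar1, Thbd and F3 in Tom+ cells did not pass (edgeR adjusted p = 0.11, 0.0611 and 0.176). Of the regulators of such genes, Hnf4a (0.19), Cebpa (-0.12) and Stat3 (0.11) did not pass between the fractions in CCl4, and Socs3, which IL-6 signalling induces, rose in Tom- CCl4 against oil (1.69, edgeR adjusted p = 0.0331, and 0.13 without those 2 libraries). In Tom+ cells its value was 1.47 and did not pass (edgeR adjusted p = 0.0733). Socs3 was at 7.51, 10.1 and 24.9 CPM in Tom- CCl4 and at 10.1, 9.69 and 23.2 CPM in Tom+ CCl4, with replicate 3 high in both fractions, and between 4.22 and 5.46 CPM in oil.

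Markers of other cells and of liver zones moved in the same comparisons. Between the fractions in CCl4, 7 of 8 endothelial markers fell in Tom+ (median log2 fold change -0.83), and their summed level was 150 to 201 CPM in Tom+ and 286 to 312 CPM in Tom-. All 10 markers of zone 1, the hepatocytes near the portal tract, had negative values (median -0.85, 4 fell), with sums of 7508 to 9686 CPM in Tom+ and 10940 to 14090 CPM in Tom-. All 10 markers of zone 3, near the central vein, had positive values (median 1.17, none passed), with sums of 3617 to 5064 CPM and 1573 to 2703 CPM. No marker in these 3 lists was at 0 in all libraries of a group. Acute phase genes were lower as well (median -0.52, 2 of 10 fell), and Alb had a value of -0.42 that did not pass (edgeR adjusted p = 0.0666). In oil the zone 3 markers were negative in 10 of 10 (median -0.98, and -2.06 without the 2 oil libraries that went against their label, none passed in either). In CCl4 against oil, 8 of 8 endothelial and 6 of 7 stellate markers rose in Tom- cells, and in Tom+ cells 9 of 10 zone 1 markers fell and 5 of 10 zone 3 markers rose. Without those 2 libraries these counts were 7 of 8, 6 of 7, 9 of 10 and 7 of 10. Mitochondrial genes took 3.43%, 4.50% and 5.58% of counts in the Tom- CCl4 libraries and 3.09%, 2.54% and 3.16% in the Tom+ CCl4 libraries, with no overlap. The part of these shifts in the members' results was not tested. In bulk samples fewer cells of a type and less RNA per cell cannot be told apart.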

How the data were processed

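The 12 libraries were strand-specific polyA RNA-seq of sorted hepatocytes. Per the labels, the authors trimmed reads with fastp 0.23.2, aligned them to mm10 with HISAT2 2.1.0 and used DESeq2 1.42.1. The authors deposited expected counts (estimated counts that need not be whole) for 54839 features, and 30.4% to 32.9% of the values above 0 in a library were not whole. The counting program, its strand setting and the annotation release are not given in the sources used here. The planned test assumed whole counts, so values were rounded.

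Genes were tested with edgeR 4.0.16 in R 4.3.3 (robust quasi-likelihood test, TMM scaling, filterByExpr, 17121 genes kept) in 1 fit of 12 libraries, with Benjamini-Hochberg adjustment over all genes. "Rose" and "fell" mean an adjusted p under 0.05, and a further limit was a log2 fold change beyond 0.75. CPM used TMM library sizes, and TPM was computed from the counts and feature lengths. Library totals had a median of 47910752 counts. Scripts were tested on simulated data. Of the planned lists, 2 genes and 1 promoter motif are not reported here. The members and gene lists were chosen with earlier results of these data known. Full statistics were given for up to 5 members past both limits in each direction or, with fewer than 3 of these, for the 3 members of smallest p. Other statistics in the text were picked with the values in view.

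Same-numbered Tom+ and Tom- libraries of a treatment deviated together over 17121 genes (correlations of 0.403, 0.332 and 0.543 in CCl4 and of 0.307, 0.383 and 0.364 in oil), so the number was used as a block in an alternative fit. Across treatments same-numbered libraries deviated together less (correlations of 0.023, 0.074 and 0.032 in Tom- and of 0.153, 0.037 and 0.279 in Tom+). The blocked fit of CCl4 against oil nevertheless used 1 block per number over both treatments. The blocked fits between fractions and of the interaction used pairs within a treatment. Alternatives were RLE scaling, other filters, DESeq2 1.42.0, fits of the compared libraries alone, leaving out each library or the 2 oil libraries against their label and, chosen after seeing the data, total-count scaling, an adjusted p alone, and the averaged contrast and other gene lists without those 2 oil libraries.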

Additional observations from a re-analysis of the deposited data

Results flagged for a closer look

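The difference between Tom+ and Tom- in CCl4 minus that in oil was -0.638 on the log2 scale for F7, and the test of this difference passed (edgeR adjusted p = 0.0311). For 3 members every Tom- CCl4 library lay above every Tom- oil library and every Tom+ CCl4 library below every Tom+ oil library: F10 (difference of -0.536), C8g (-0.441) and Cfi (-0.425). Their tests of the difference did not pass (edgeR adjusted p = 0.0681, 0.112 and 0.128) without the replicate block and passed with it (0.0051, 0.00985 and 0.0205). F11 was higher in Tom+ than in Tom- in each same-numbered pair of oil libraries (log2 fold change 0.247) and lower in each pair of CCl4 libraries, and its test of the difference did not pass without the replicate block (edgeR adjusted p = 0.124) and passed with it (0.00137). Of the oil pairs, only the pair numbered 3 set a low reporter (143 CPM in Tom-) against a high one (1225 CPM in Tom+). Without the 2 oil libraries whose reporter went against their label, the test passed for none of these 5 members (edgeR adjusted p = 0.0859 for F7, 0.193 for F10, 0.216 for C8g, 0.342 for Cfi and 0.37 for F11).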

How the results depend on the processing

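No member named with full statistics changed sign under any alternative run. In CCl4 against oil in Tom- cells, the 4 members that rose (0 fell) became 9 with DESeq2 (1 fell), 1 with the compared libraries alone, 7 with the replicate block (1 fell), 1 without the 2 oil libraries against their label and 0 averaged over both fractions (8 fell), and with total-count scaling 1 fell. In Tom+ cells the 10 that fell (0 rose) became 16 with DESeq2, 1 without those 2 libraries (1 rose) and 5 with total-count scaling (1 rose). The 1 member past the 0.75 limit as well became 0 without those 2 libraries, 0 with total-count scaling and 0 averaged over both fractions. Between the fractions in CCl4 the 15 that fell became 25 with DESeq2 and 33 with the replicate block, and for the interaction 1 became 11 with DESeq2, 24 with the replicate block and 0 without those 2 libraries. With the 0.75 limit dropped, the counts were 4, 10, 15 and 1 in place of 0, 1, 0 and 0. Among all genes, DESeq2 and the replicate block called more as well: 12% and 12.6% rose in Tom- (9.37% in edgeR without the block), 6.38% fell in Tom+ with DESeq2 (4.56%), 6.65% and 9.72% fell between the fractions in CCl4 (3.83%), and 3.84% and 7.18% were lower for the interaction (1.07%). The causes were not tested.

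Leaving out 1 library at a time gave 0 to 4 members higher and 0 to 2 lower with CCl4 in Tom-, 0 to 1 higher and 3 to 12 lower in Tom+ (0 to 2 past the 0.75 limit), 4 to 20 lower between the fractions in CCl4 and 0 to 2 lower for the interaction (0 to 1 past that limit). The 2 lower in Tom- appeared without Tom- CCl4 replicate 1, and the 1 higher in Tom+ without Tom+ oil replicate 2.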
